A study of Mus musculus with 4 samples.

Results

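Ribosomal protein pseudogenes with assigned reads were examined in polyA-selected RNA-seq of regulatory T cells (Treg) labelled inflammation-experienced. Treg are a lineage marked by the transcription factor Foxp3 that restrains immune responses. The genes were chosen by symbol (beginning with Rpl or Rps and holding -ps) and by a mean of at least 1 TPM (transcript abundance scaled for length and library total) over the libraries in the deposited gene tables; 103 of 300 genes of this symbol form met the rule, among 55536 annotated genes. The material was 1 biosample from a male adult mouse of 6 months, strain Foxp3CreERT2 x Rosa26YFP, in which an inducible Cre recombinase is driven by Foxp3 and a fluorescent reporter lies in Rosa26. The labels give 4 technical replicates of 1 biological replicate, called libraries 1 to 4, and no untreated or other group. The comparisons below are therefore between 3 quantifications of the same libraries, or between the libraries themselves, and no p-value describes variation between animals. The limma tests below set a difference against the spread between these libraries, which may be technical, and the Poisson tests set library differences against counting error alone.

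A processed pseudogene arises when the messenger RNA of a gene is copied into DNA and inserted elsewhere in the genome, so it has no introns and usually lacks the promoter of its parent. Ribosomal protein genes are among the most abundant sources of such copies in mammals, since their messengers are short and abundant in most cells. A young copy can match its parent base for base. A short read from the parent messenger then fits both places, and a program that counts reads must divide it, drop it or choose.

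The pairs shown next differ in how far the copy can be told from its parent, and the results turn on them. All are windows of 150 bases from GENCODE M21 transcripts on mm10, written 5′ to 3′, from a processed pseudogene and from the coding part of its parent gene's messenger, and capitals mark bases that differ between them. Rps23-ps1 (chr3:37714740-37714889, + strand) holds the same 150 bases as Rps23, so its window is given once. Rpl3-ps1 (chrX:13202572-13202721, + strand) and Rpl23a-ps3 (chr14:34170695-34170844, + strand) each differ from the parent by 1 base in the window. Rps13-ps1 (chr8:87048020-87048169, + strand) differs by 2 bases, and the window of Rps13 also lies unchanged in another pseudogene, Rps13-ps2 (chr7:88530449-88530598, - strand). Rps15a-ps8 (chr4:53791307-53791456, - strand) differs by 16 bases.
Rps23-ps1: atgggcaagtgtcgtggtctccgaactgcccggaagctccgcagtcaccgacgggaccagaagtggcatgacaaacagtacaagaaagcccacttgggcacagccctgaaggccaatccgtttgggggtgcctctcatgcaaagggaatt
Rpl3-ps1: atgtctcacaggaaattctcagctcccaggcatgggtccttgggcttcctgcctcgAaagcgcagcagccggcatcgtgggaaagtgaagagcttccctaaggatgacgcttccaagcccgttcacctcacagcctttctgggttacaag
Rpl3: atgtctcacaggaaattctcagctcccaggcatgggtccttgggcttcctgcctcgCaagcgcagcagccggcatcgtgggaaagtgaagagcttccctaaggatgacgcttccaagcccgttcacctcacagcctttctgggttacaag
Rpl23a-ps3: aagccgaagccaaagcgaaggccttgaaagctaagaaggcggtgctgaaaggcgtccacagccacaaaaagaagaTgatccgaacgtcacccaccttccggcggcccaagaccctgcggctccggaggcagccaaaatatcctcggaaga
Rpl23a: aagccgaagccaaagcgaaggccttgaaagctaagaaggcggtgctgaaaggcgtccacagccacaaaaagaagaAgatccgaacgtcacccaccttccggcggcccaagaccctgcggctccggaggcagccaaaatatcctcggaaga
Rps13-ps1: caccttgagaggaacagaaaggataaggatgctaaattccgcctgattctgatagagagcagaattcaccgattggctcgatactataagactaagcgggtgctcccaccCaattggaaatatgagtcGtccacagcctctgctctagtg
Rps13: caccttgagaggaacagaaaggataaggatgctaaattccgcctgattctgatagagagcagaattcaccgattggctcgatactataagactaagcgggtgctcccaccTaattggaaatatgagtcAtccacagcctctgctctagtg
Rps15a-ps8: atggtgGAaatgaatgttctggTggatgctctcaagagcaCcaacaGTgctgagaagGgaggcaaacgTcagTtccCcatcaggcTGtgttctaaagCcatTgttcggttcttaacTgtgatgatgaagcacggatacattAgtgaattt
Rps15a: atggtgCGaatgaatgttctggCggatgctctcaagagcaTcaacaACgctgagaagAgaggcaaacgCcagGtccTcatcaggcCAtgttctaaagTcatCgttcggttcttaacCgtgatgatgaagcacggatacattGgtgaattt

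Depth and sample identity set the frame for the counts. The gene table, a quantification of genes from a transcriptome alignment, held 6648385 to 9341328 expected counts per library, with library 4 the lowest. The index table, made from the reads and a transcript index, held 9494828 to 13586942 and the whole-number table held 6724013 to 9607115. The 4 Treg markers summed to 655 to 955 TPM and the 4 general T cell markers to 6052 to 6596 TPM in each library. Single markers stood apart between libraries: Foxp3 had 20.3, 21.7, 32.8 and 36.4 TPM in libraries 1 to 4, Ikzf2, another Treg transcription factor, had 279, 350, 562 and 457 TPM, and Cd4 had 516, 495, 309 and 318 TPM. For these 3 genes libraries 1 and 2 did not overlap with libraries 3 and 4. Among the other Treg and T cell markers the same held for Ctla4, Cd3g and Cd3e, but not for Il2ra and Trac. Ctla4 had 141, 145, 162 and 183 TPM and Cd3g had 1249, 1338, 1493 and 1501 TPM. Cd3e had 1378, 1524, 1375 and 1262 TPM, a narrow gap. The share of all genes with this split between libraries was not counted, so these markers have no background beside them. Markers of B cells summed to 21.4 to 88.8 TPM, myeloid markers to 5.64 to 28.2 TPM, CD8 genes to 10.1 to 17.3 TPM and stromal genes to at most 0.3 TPM. The 4 erythroid markers stood at 965 TPM in library 1 and at 3.55, 36.3 and 17.2 TPM in libraries 2 to 4.

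The 103 pseudogenes comprised 57 copies of large-subunit (Rpl) and 46 of small-subunit (Rps) genes, and they traced to 46 parent genes, 27 Rpl and 19 Rps. The annotation classes 94 as processed pseudogenes, 5 as transcribed processed pseudogenes and 4 as protein coding (Rpl10-ps3, Rpl36a-ps1, Rpl9-ps6 and Rps12-ps3). The leading transcript had 1 exon in 102 of them and 2 exons in 1, Rpl31-ps23. They lay on 20 chromosomes, and only 3 (Rps13-ps2, Rps2-ps9 and Rpl23a-ps2) lay on the chromosome of the parent. The number of copies per parent ran from 1, for 21 parents, to 7, for Rps15a.

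Sequence was close to the parent's. The choice by level did not use it directly, but a copy that shares sequence with its parent can be given the parent's reads. Likeness to the parent is therefore not independent of the choice. Over the aligned part the median identity was 98.93%, with a range of 87.54% to 100%, against a median of 93.045% for 196 aligned genes of the same symbol form with less than 1 TPM. Each transcript was also divided into all its overlapping words of 31 bases (31-mers). A median of 72.79% of a pseudogene's 31-mers also occurred in the parent, against 16.48% for the 197 genes below the minimum, and a median of 16.83% occurred in no other annotated gene. In 23 of the 103 no 31-mer was unique, and in 21 no stretch of 100 bases was unique; in 12 every stretch of 100 bases was. For 74 the gene sharing most 31-mers was the named parent, and for 29 it was another gene. A copy of the parent's whole coding sequence, with start, stop and no shift or early stop, was held by 46, of which 24 encode the parent's protein without a change. Of the 4 annotated as coding, Rpl10-ps3 and Rps12-ps3 encode the parent's protein unchanged, Rpl9-ps6 has 1 amino acid change and Rpl36a-ps1 has 3.

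The levels that chose these genes spanned a wide range. By the gene table, 27 were at 100 TPM or more, 28 between 10 and 100 TPM and 48 under 10 TPM, with a median of 11.9 TPM. In such bulk libraries fewer cells of a type and less RNA per cell cannot be told apart. The 80 cytosolic ribosomal protein genes had a median of 1576 TPM and a range of 68.7 to 10438 TPM. The lowest members were Rpl13-ps1 at 1.02 TPM, Rpl13-ps3 and Rps6-ps3 at 1.1 TPM and Rps15-ps2 at 1.24 TPM. Just outside were Rpl5-ps2 at 0.993 TPM, Rps12-ps9 at 0.938 TPM and Rpsa-ps12 at 0.863 TPM. Of the genes not chosen, 109 had 0 expected counts in all libraries. In 83 of the 103 the level reached 1 TPM in every library, 11 had 0 expected counts in at least 1 library, and 33 had a mean under 10 expected counts.

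Levels were higher where more of the sequence was shared with the parent. Across the 103 genes Spearman's rho between the share of 31-mers in the parent and mean TPM was 0.708, a description over genes of the same libraries that share reads with their parents. Between the share of unique 31-mers and mean TPM it was -0.626. With TPM from the index table rho for the share in the parent was 0.532. The 13 pseudogenes with all their 31-mers in the parent ran from 144 to 3975 TPM with a median of 796 TPM, took 10 of the 12 highest places, and held 70.5% of all expected counts given to the 103. The 63 with at least 50% but not all ran from 1.1 to 1083 TPM with a median of 15.7 TPM. The 27 with less than 50% ran from 1.02 to 33.8 TPM with a median of 2.98 TPM and held 0.515% of the counts. No gene of the symbol form below the minimum had all its 31-mers in its parent, but the choice by level is not independent of such sharing.

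**Figure D1:**
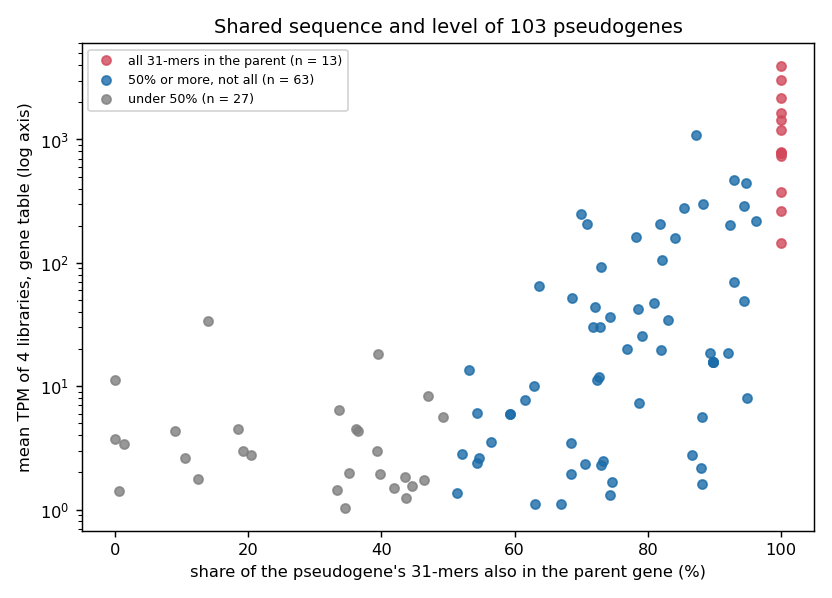
Each point is 1 of the 103 pseudogenes; the x axis is the percent of its 31-mers that also occur in the parent gene and the y axis its mean TPM over 4 libraries on a log scale, coloured by class. The 13 points at 100% lie between 144 and 3975 TPM, while the 27 points under 50% lie between 1.02 and 33.8 TPM.

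Small-subunit copies led the list. Rps23-ps1, a copy of the gene for a protein of the decoding centre, had 3835, 4187, 3817 and 4059 TPM in libraries 1 to 4, and Rps23 itself had 1071, 1183, 1067 and 1182 TPM. The pseudogene was above its parent in all 4 libraries, and the values did not overlap. Rps6-ps4 had 2734, 3240, 3178 and 3066 TPM, against 2161, 2606, 2056 and 2233 TPM for Rps6, whose protein is the classic target of the S6 kinases downstream of mTOR. Rps16-ps2 had 1942, 2329, 2278 and 2174 TPM, and Rps16 had 1141, 1299, 1172 and 1199 TPM. Both copies again exceeded every parent value. Rps13-ps1, with 623, 743, 1442 and 1522 TPM, is the only small-subunit copy among the 12 highest whose libraries fell apart into a lower and a higher pair.

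Large-subunit copies filled the other 8 of the 12 highest places. Their means and SDs over the 4 libraries were 1643 ± 72.9 TPM for Rpl15-ps3, 1439 ± 48.8 for Rpl38-ps2, 1200.3 ± 59.5 for Rpl27-ps3, 796 ± 74.1 for Rpl36a-ps2, 778 ± 56.1 for Rpl31-ps8, 773 ± 69.6 for Rpl28-ps1, 728 ± 55.6 for Rpl10a-ps1 and 467 ± 27.2 for Rpl23a-ps3. In mean TPM 10 pseudogenes were above their parent, namely all of the 12 highest except Rpl10a-ps1 and Rpl23a-ps3. In mean expected counts 8 were, since TPM divides by the effective length of each gene model and the copies are shorter. Rpl38-ps2 shows the difference: its model of 213 bases has a mean effective length of 53.6 bases, and its mean of 538 expected counts was below the 1198 of Rpl38 although its TPM was above.

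**Figure D2:**
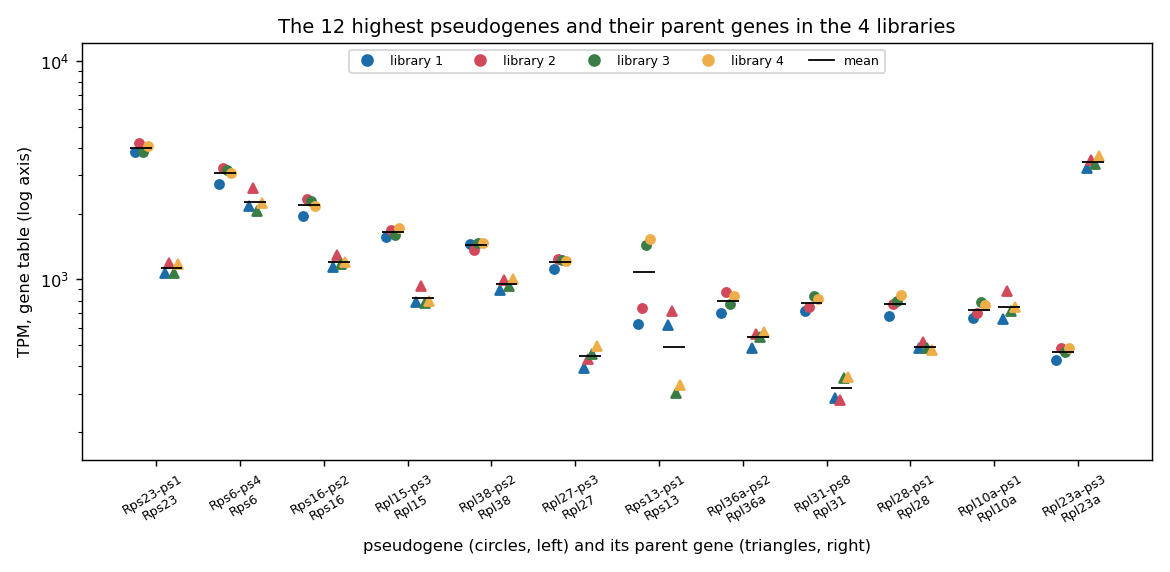
Gene-table TPM on a log axis for the 12 highest pseudogenes (circles) and their parents (triangles), with 1 point per library and a bar at the mean. Circles lie above triangles for Rps23-ps1 in every library, and the points of Rps13-ps1 and Rps13 form 2 pairs of libraries that move in opposite directions.

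Each parent with its pseudogenes was then treated as 1 family, to see how the quantifications divided its reads. In the gene table the 103 pseudogenes took 14.0%, 14.0%, 15.0% and 14.8% of the expected counts of the 46 families in libraries 1 to 4, a mean of 14.4% ± 0.545 (SD, n = 4). In the index table they took 16.5% ± 0.722 of the estimated counts. In the whole-number table, which counts reads of a genome alignment over GENCODE M4, 12 of the 103 had a row matched by gene ID, and these took 0.268% ± 0.0217. Of all expected counts in the gene table the pseudogenes held 0.641% ± 0.0564.

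The division was uneven between families. In the gene table pseudogenes held 50% or more of the counts in 8 of 46 families, 10% or more in 16, and under 1% in 15. In the index table these were 12, 18 and 21 families. For Rps23, with a single copy, the pseudogene took 63.5%, 62.8%, 63.4% and 62.1% of the family's expected counts. The mean over libraries was 59.1% ± 1.64 for Rpl27, 58.1% ± 1.61 for Rpl31, 56.8% ± 1.71 for Rpl15, 56.0% ± 1.37 for Rps16, 54.7% ± 2.67 for Rpl28 and 52.6% ± 2.47 for Rps6. Rps13 had the highest share, 70.5% ± 10.1, and by far the widest spread of these 8. In the index table the share was higher for Rps23, at 80.4% ± 1.53, and for Rpl28, at 71.2% ± 1.04. For Rps12 it was 17.4% ± 4.92 in the gene table and 80.8% ± 2.31 in the index table, and for Rpl10, whose protein joins the large subunit late in its assembly, it was 26.3% ± 1.85 and 74.8% ± 1.5. The opposite shift occurred for Rpl3 (9.3% ± 0.518 and 0.137% ± 0.027), whose protein lies at the peptidyl transferase centre, and for Rpl23a (9.45% ± 0.199 and 0.325% ± 0.367), whose protein lies near the exit tunnel.

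The whole-number count of the parent alone was then set beside the gene-table counts, since its totals per library were close to those of the gene table. Rps23 had a mean whole-number count of 9982, against 4157 expected counts for Rps23 and 11226 for Rps23 plus Rps23-ps1. The whole-number count was thus 2.41 times the parent's own expected count and 0.894 ± 0.0405 times the family's. For Rps16 the ratios were 2.3 and 1.01 ± 0.0386, for Rpl28 they were 2.37 and 1.07 ± 0.0376, and for Rpl27 they were 2.22 and 0.908 ± 0.0291. For Rps13 they were 3.4 and 0.925 ± 0.0467. In these 5 families the whole-number count of the parent was nearer to the family total than to the parent's share. For Rps6 and Rpl15 it was nearer to the parent's share: the ratios were 0.967 and 0.457 ± 0.0176 for Rps6, and 1.21 and 0.522 ± 0.0106 for Rpl15.

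**Figure D3:**
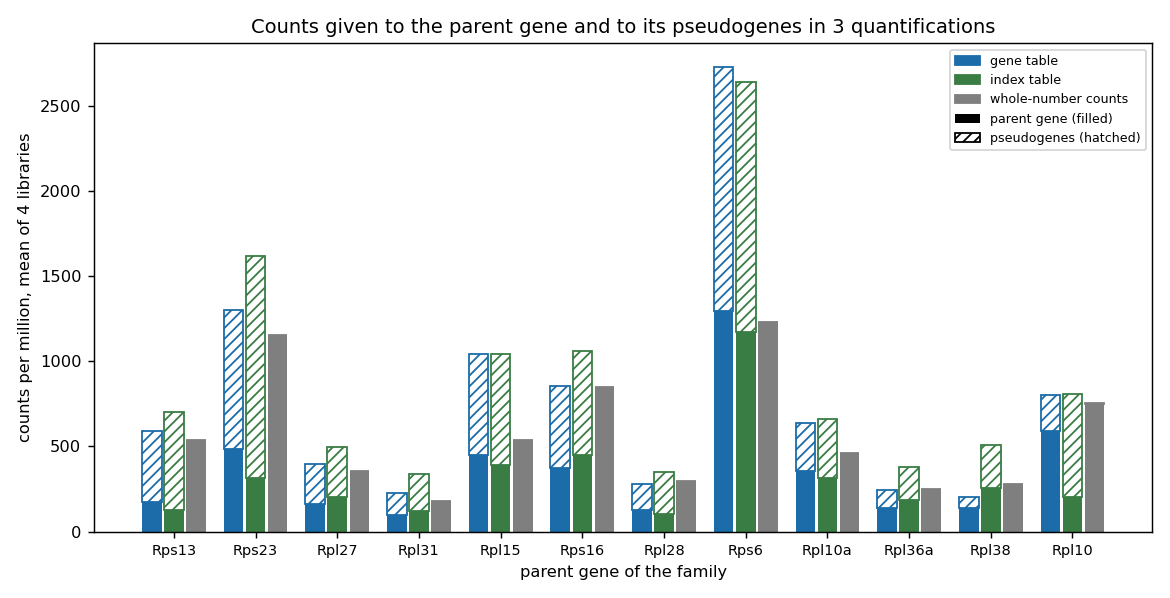
Mean CPM, counts scaled to each library total, over 4 libraries for the 12 families with the highest pseudogene share, as stacked bars of the parent (filled) and its pseudogenes (hatched), in the gene table, the index table and the whole-number counts. The whole-number bars hold almost no hatched part; the gray Rps23 and Rps16 bars stand near the full height of the blue stack, and the gray Rps6 and Rpl15 bars near its filled part.

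The index table uses the same M21 annotation and was summed per gene. Its TPM was compared with the gene table's in each library as log2 of the ratio with a pseudocount of 0.5 added to both, by limma over 13822 genes at 1 TPM or more in the gene table. A gene was called at a Benjamini-Hochberg adjusted p under 0.05 and a mean log2 ratio of 1 or more in size. Among the pseudogenes 31 of 103 (30.1%) were lower in the index table, where 15.3% of all genes tested were, and 7 (6.8%) were higher, where 1.95% of all were. The gene-table level, which is one side of this ratio, also chose the members, and the background genes passed the same minimum. The median log2 ratio was -0.54 for the pseudogenes and -0.76 for all genes tested. With each library centred on that median, 24 were lower and 19 higher, against backgrounds of 1.41% and 5.32%. With counts scaled to the library total (CPM) in place of TPM, 22 were lower and 12 higher, against 1.54% and 3.68%. Of the 46 parents 5 were lower and 0 higher without centring, by limma. The 5 were Rps12, Rps13, Rpl10, Rpl13 and Rpl15, and with centring 2 were lower and 1 higher. At an unadjusted p under 0.05 regardless of size, limma gave 42 parents lower and 2 higher without centring. With centring 15 were lower and 27 higher, and in CPM 18 and 28, so the direction of the parents depended on the scaling. The share of all genes tested at this unadjusted p was not counted, so these counts have no background beside them.

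The calls by class of sequence also moved with the scaling. Of the 13 pseudogenes with all 31-mers in the parent 0 were lower by limma and 1, Rps12-ps3, was higher, with a median log2 ratio of -0.14; at an unadjusted p under 0.05 regardless of size, 8 were lower and 3 higher. With centring 0 of the 13 were lower and 3 higher (Rps12-ps3, Rpl38-ps2 and Rpl10-ps1), with a median of 0.63, and at an unadjusted p under 0.05 the counts were 0 and 10. In CPM they were 0 lower and 3 higher, and 0 and 12 at an unadjusted p under 0.05. Of the 63 with at least 50% shared, 29 were lower and 4 higher, with a median of -0.79, and with centring 23 and 8. Of the 27 with less, 2 were lower and 2 higher, with a median of -0.17, and with centring 1 and 8. The difference between the classes was not tested, and no share of all genes was counted at the unadjusted p.

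Rpl3-ps1, of which only a window with 1 changed base is shown above, had 438, 502, 452 and 381 TPM in the gene table. In the index table it had 1.46, 2.09, 1.69 and 2.6 TPM. The 2 tables did not overlap in any library, and the mean log2 ratio was -7.51 (SE 0.16; limma adjusted p = 4.9e-05). Rpl23a-ps3 had 429, 488, 465 and 486 TPM in the gene table. The index table gave it 0, 3.47, 23.6 and 0 TPM, a mean log2 ratio of -7.72 (SE 1.09; limma adjusted p = 0.0018). Library 3 alone carried most of its index-table reads, with 142 estimated counts, against 1048 expected counts in the gene table. Rps10-ps2 had 47.2, 38.6, 49.3 and 33 TPM in the gene table and 1.54, 0, 0.907 and 0.708 TPM in the index table. Rpl19-ps11 had 253, 297, 341 and 274 TPM, and 5.17, 12.1, 7.36 and 19.5 TPM in the index table. Rps19-ps6, a copy of the gene most often mutated in Diamond-Blackfan anaemia, had 163, 179, 161 and 143 TPM, and 6.77, 10.4, 7.1 and 1.38 TPM. All 3 were called lower, with mean log2 ratios of -5.19, -4.82 and -4.80, and 78.5%, 94.5% and 78.2% of their 31-mers, in that order, lie in the parent.

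Copies at the other end were higher in the index table. Rps27a-ps2, a copy of a gene that encodes ubiquitin fused to a ribosomal protein, had 65.1, 57.7, 79.2 and 76.8 TPM in the gene table. The index table gave it 258, 304, 386 and 384 TPM, a mean log2 ratio of 2.24 (SE 0.08; limma adjusted p = 4.9e-05). Rps26-ps1 had 207, 215, 234 and 172 TPM and, in the index table, 528, 779, 769 and 672 TPM, a mean log2 ratio of 1.72 (SE 0.11; limma adjusted p = 0.00011). Both were higher in the index table in all 4 libraries, without overlap. Rpl39-ps, a model of only 151 bases, had 84.9, 55.8, 5.22 and 0 TPM from a mean of 3.7 expected counts, and 220, 383, 301 and 428 TPM in the index table, with limma adjusted p = 0.031. Rpl36a-ps3 had 4.18, 0, 0 and 10.7 TPM, and 11.6, 14.7, 6.2 and 27.6 TPM in the index table, with limma adjusted p = 0.017. Rps13-ps2 had the second highest mean ratio, 4.59, but its libraries disagreed and limma did not call it (adjusted p = 0.091).

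**Figure D4:**
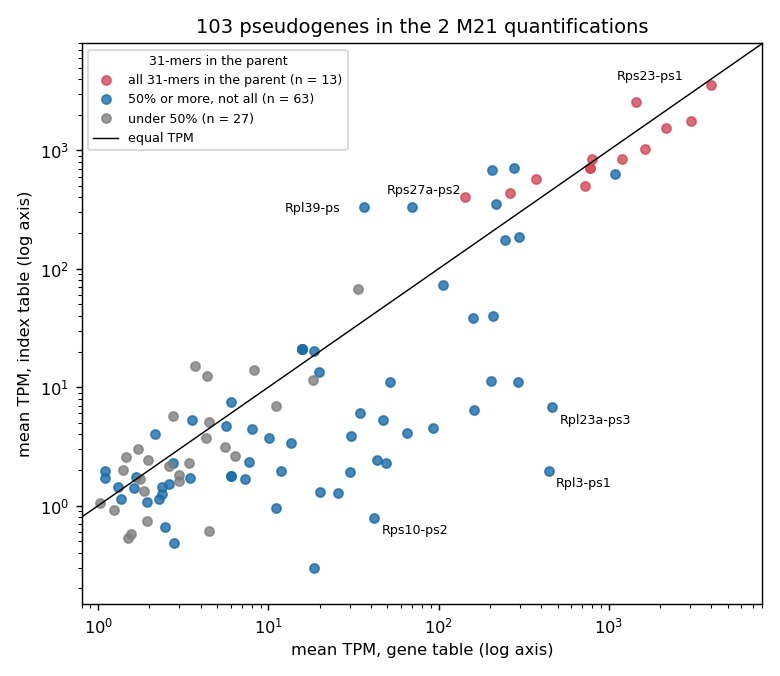
Mean TPM over 4 libraries of the 103 pseudogenes in the gene table (x) and the index table (y), both on log axes, with a line of equal TPM. Red points (all 31-mers in the parent) lie near the line, with Rps12-ps3 (144 TPM in the gene table) above it, whereas Rpl3-ps1 and Rpl23a-ps3 lie far below it and Rps27a-ps2 and Rpl39-ps above it.

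For 12 pseudogenes the whole-number table could be compared, as log2 ratios of CPM with a pseudocount of 0.5. Of these limma called 8 lower than in the gene table, where 15.4% of the 10777 genes tested were, and 2 higher, where 2.84% were. Centring left 8 and 2, against 17.2% and 1.99%. Rpl27-ps3, one of the copies with all 31-mers in its parent, had 1911, 2331, 2244 and 1593 expected counts. Its whole-number counts were 6, 2, 5 and 8, a mean log2 ratio of -7.86 (SE 0.23; limma adjusted p = 2.7e-05). Rps12-ps3 had 331, 483, 234 and 254 expected counts and whole-number counts of 1, 6, 9 and 6. Rpl10-ps3 had 962, 1027, 873 and 763 expected counts and whole-number counts of 44, 54, 50 and 46. For all 3 every whole-number value lay below every expected count. The others called lower were Rpsa-ps10 (-3.70), Rpl23a-ps3 (-2.76), Rps26-ps1 (-1.97), Rpl9-ps6 (-1.65) and Rps2-ps6 (-1.24).

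The 2 called higher had few reads in both M21 tables. Rps18-ps3 had 63.4, 33.4, 45.5 and 54.5 expected counts and 264, 284, 276 and 272 whole-number counts, a log2 ratio of 2.29 (SE 0.16; limma adjusted p = 0.00015). In the index table it had at most 9.02 estimated counts in any library. Rps10-ps1 had 9.43, 9.28, 2.61 and 9.02 expected counts and 98, 119, 96 and 84 whole-number counts, a log2 ratio of 3.07 (SE 0.19; limma adjusted p = 0.00011). Rpl13-ps3 and Rpl36-ps3 each had a ratio of 0.32, below the fold minimum. Among the 46 parents limma called 0 lower and 5 higher: Rps13 (1.58), Rps23 (1.14), Rpl28 (1.11), Rps16 (1.07) and Rpl27 (1.02). All 5 are parents of a copy among the 12 highest. Those copies were ranked by the gene table, which also enters this ratio, so the overlap is not independent of it. With centring 3 of the 46 were called higher. At an unadjusted p under 0.05 regardless of size, limma gave 13 parents lower and 30 higher, and the share of all genes at that p was not counted.

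The 4 libraries were compared by a Poisson likelihood ratio test on rounded expected counts with edgeR's TMM scaling, over genes with a mean of at least 10 counts. This test takes each count as a number of independent molecules and leaves out the uncertainty of reads shared between genes, so its p-values are too small for copies that share reads. Among the pseudogenes 41 of 70 tested differed between libraries, or 58.6%, where 68.5% of all 13034 genes tested did. The parents, with far higher counts, differed in 45 of 46. Library 1 was the lowest in 24 of the 41 and library 2 the highest in 20; library 1 is also the library with the high erythroid markers, and their part in this order was not tested. In CPM the highest library was at least 2 times the lowest in 14 of the 41. Some of these had low values, such as Rps2-ps9 at 0.54 to 2.48 CPM. Neither this ratio nor the order of libraries was counted over all genes tested.

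Rps13 had the widest spread between libraries of the 46 parents. Rps13-ps2, which holds all its 31-mers in Rps13, had 1450 and 1727 expected counts in libraries 1 and 2 and 0 in libraries 3 and 4. Rps13 was lower in the same libraries, with 1911, 2461, 1063 and 804 expected counts. Rps13-ps1, which differs from both by the 2 bases in capitals within the window above, had 1629, 2138, 4021 and 3037. In CPM Rps13-ps1 thus stood at 175 and 229 in libraries 1 and 2 and at 431 and 457 in libraries 3 and 4 (Poisson likelihood ratio test with edgeR's TMM scaling, adjusted p = 1.95e-294). The family sum was 543, 682, 550 and 582 CPM, with an SD of 10.9% of its mean, against 40.7% for Rps13 alone. In the whole-number counts Rps13 had 512, 638, 476 and 536 CPM, with an SD of 12.9% of the mean. The index table showed the same pairs of libraries: Rps13-ps2 had 3863, 5567, 1205 and 1062 estimated counts, and Rps13-ps1 had 2037, 2720, 6660 and 4514. The counts given to single genes of the family thus differed between libraries far more than the family sum. Foxp3, Ikzf2, Ctla4, Cd4, Cd3e and Cd3g differed between the same pairs of libraries, while Il2ra and Trac overlapped. How many of all genes did so was not counted. The part of any difference between the libraries' material in these counts was not tested.

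**Figure D5:**
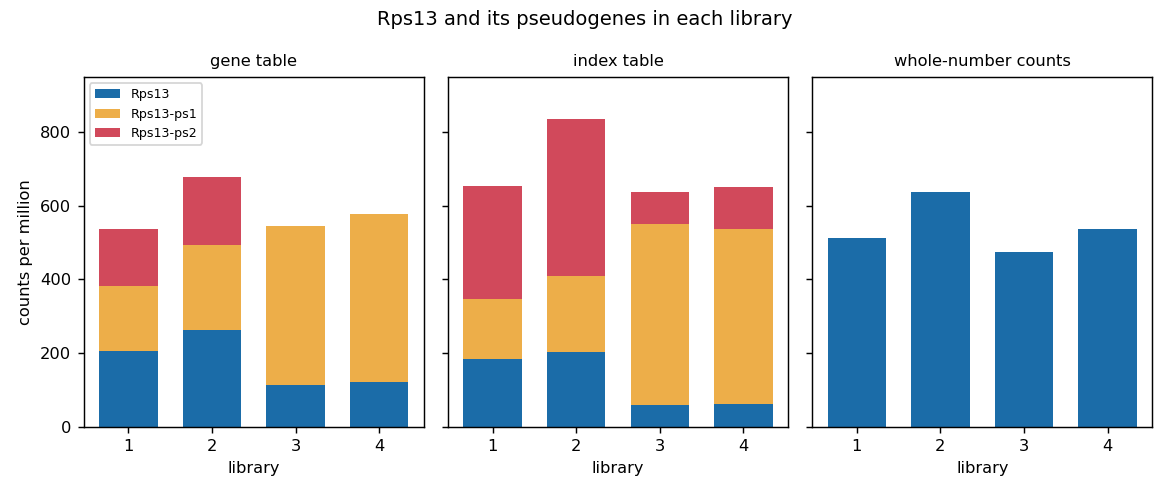
CPM of Rps13 (blue), Rps13-ps1 (yellow) and Rps13-ps2 (red) in libraries 1 to 4, stacked, in the gene table, the index table and, for Rps13 alone, the whole-number counts. The red part is absent from libraries 3 and 4 of the gene table and the yellow part is larger there, while the total height changes little.

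A pair of further copies with uneven libraries was named after their values were seen. Rps15a-ps8, whose 16 differing bases in the window set it well apart from Rps15a, had 29.8, 29.8, 66.6 and 68.3 expected counts, higher in libraries 3 and 4 as for Rps13-ps1 (Poisson likelihood ratio test with edgeR's TMM scaling, adjusted p = 4.1e-08). Its index-table counts were 104, 193, 460 and 272. The parent Rps15a went the other way in the gene table, with 397, 523, 299 and 321 CPM. In the whole-number counts Rps15a had 498, 638, 422 and 455 CPM, also lower in libraries 3 and 4. The 7 copies of Rps15a together took 8.42%, 7.95%, 16.1% and 15.1% of the family's expected counts. Foxp3, Ikzf2, Ctla4, Cd4, Cd3e and Cd3g differed between these pairs of libraries too, while Il2ra and Trac overlapped. The share of all genes with this split was not counted, and a link between these genes and Rps15a-ps8 was not tested. Rpl7a-ps11, which has no unique 31-mer, had 0.02, 202, 0.43 and 115 expected counts, almost all of them in libraries 2 and 4 (same test with edgeR's TMM scaling, adjusted p = 2.73e-107). In the index table it had at most 6.62 counts in any library. Over the 46 families the median SD between libraries was 9.97% of the mean for the parent, 15.2% for the summed pseudogenes and 9.84% for the family sum, and the sum varied less than the parent in 32 families.

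The gene table also gives, for each count, a posterior mean and a posterior SD, per the file headers, which describe the count within 1 library. The posterior SD was a median of 15.2% of the posterior mean for the 103 pseudogenes, 0.659% for their 46 parents and 0.617% for the 80 ribosomal protein genes. Over all 13822 genes at 1 TPM or more the median was 0%, with a highest value of 568%. The posterior SD exceeded the SD between libraries in 23 of 103 pseudogenes and in 0 of 46 parents. The share of all genes in which it did so was not counted. For Rps23-ps1 it was 0.96%, although the copy has no base of its own in the window above and its share moved from 62.9% to 80.4% between the gene and index tables. For Rps13-ps2 it was 54.6% and for Rps15a-ps8 2.65%. Identical transcripts received identical values: Rpl35a-ps2, Rpl35a-ps3, Rpl35a-ps4 and Rpl35a-ps6 each had 15.7 ± 3.3 TPM, and Rps19-ps1 and Rps19-ps2 each had 6 ± 2 TPM. The posterior SD of Rpl35a-ps2 was 89.3% of its mean.

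Many copies lie within other genes. Of the 103, 58 overlapped no other annotated gene and 45 overlapped at least 1; the pairs comprised 15 within an intron on the same strand, 28 within an intron on the opposite strand, 3 over an exon on the same strand and 1 over an exon on the opposite strand. Rpl18-ps1 (chr1:60900898-60901422) lies on the same strand in an intron of Ctla4, the inhibitory receptor that Treg express at high levels. It had 9.14, 14.4, 11.9 and 9.07 TPM, and Ctla4 had a mean of 158 TPM. The copy has 0% of its 31-mers in Rpl18, although its symbol places it in the Rpl18 family above. Only 35.15% of its 31-mers are unique, and the rest also occur in other annotated genes. Rps12-ps26 lies in an intron of Nol11 on the same strand, with 2.62 TPM beside 40.9 TPM for Nol11, and 75.3% of its 31-mers are unique. Rps23-ps1 overlaps an exon of Gm5148 on the opposite strand, and Gm5148 had 1.38 TPM. Rpl36a-ps2 and Rpl17-ps8 lie in introns of Ddah1 and Heph on the same strand, and both host genes had 0 TPM in the gene table. Whether reads from host introns add to any of these copies was not tested.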

How the data were processed

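Each of the 4 libraries had 3 deposited quantifications on mm10, per the submitters' notes. The gene table holds expected counts and TPM, with a posterior mean and posterior SD of the count, per the file headers, made from a transcriptome alignment with GENCODE M21. The index table holds estimated counts and TPM per transcript, per the file headers, and was summed per gene. The whole-number table holds counts per gene on GENCODE M4, again per those deposited notes. The programs used and the strand setting: not given in the sources used here. Rows of spike-in and phiX controls were left out.

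The parent is the gene whose symbol precedes -ps. Sequences came from GENCODE M21 transcripts; 31-mers and 100-mers were searched on both strands, and local alignments (Biopython 1.88) scored 2 for a match, -3 for a mismatch, -7 to open and -2 to extend a gap. The quantifications were compared with limma 3.58.1 on log2 ratios and the libraries by a Poisson likelihood ratio test with edgeR 4.0.16 TMM scaling, with Benjamini-Hochberg adjustment over all genes tested; the script was tested on simulated data. DESeq2 1.42.0 size factors, other pseudocounts and filters, and leaving out each library were alternatives. Expected counts were rounded for the Poisson test. A posterior SD describes a count within a library, not differences between animals.

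The members and lists were chosen with earlier results of these data known. The genes named are the 12 highest and 4 lowest members, the 3 just below the minimum, the 5 most negative and 5 most positive in each comparison of quantifications, the members at the extremes of shared sequence, and their parents; other genes are named where a count is 5 or fewer, or were chosen after their values were seen, as were the copies in other genes, the identical copies and the sequences printed.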

Additional observations from a re-analysis of the deposited data

Results flagged for a closer look

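Among 66 named genes tested, 6 had a library whose TPM in the gene table lay far from the other 3, by the gap to its nearest neighbour relative to the whole range; chance alone gives about 1 in 20. Among pseudogenes these were Rpl38-ps2 in library 2, at 1366.6 TPM against 1458 to 1469 TPM in the others, Rpl36-ps3 in library 3, at 1.03 TPM against 4.19 to 4.64 TPM, and Rpl13-ps3 in library 4, at 0.54 TPM against 1.22 to 1.33 TPM. The last 2 rest on means of 3.55 and 3.63 expected counts. Among parents they were Rpl15 in library 2, at 935.57 TPM, Rps27a in library 1, at 1202.11 TPM, and Rps26 in library 1, at 1105.28 TPM. The Rpl15 value was above, and the other 2 below, those of the remaining libraries.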

How the results depend on the processing

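Of 39 alternatives, 36 kept their count within 1.5 times, or their share within 1 SD, of the reported one. The share of family counts held by pseudogenes, 14.4% in the gene table, was 16.5% with the index table and 0.268% with the whole-number counts, where 12 genes had a matched row, and 4.76% without the 13 copies that have all 31-mers in the parent; the last alternative and the centring were added after seeing the data. The number of pseudogenes was 129 at a minimum of 0.5 TPM, 85 at 2 TPM, 83 with 1 TPM in every library, and 119 by the index table. Leaving out 1 library at a time gave 101 to 105 pseudogenes, a share of 14.2% to 14.6%, 30 to 32 lower in the index table, 8 lower in the whole-number counts and 33 to 36 differing between libraries. The quantifications were compared within each library, and with 1 group there were no groups to pair.

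The 4 libraries come from 1 biosample, so no value describes variation between animals. The M4 gene models were not analysed here, so changes of gene model between M4 and M21 cannot be told apart from changes of method. Reads were not used, and a level of a copy that shares all its sequence with its parent is a division of shared reads by each program. The 33 pseudogenes with a mean under 10 expected counts entered the test between libraries only without the minimum, which gave 45 calls in place of 41.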

Other observations

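By the index table, 93 of the 103 pseudogenes also reached 1 TPM, and 26 further genes of the symbol form did so there only. Across the 103, Spearman's rho between mean gene-table and mean index-table counts was 0.723, a description over genes counted in the same libraries. Among the 15 copies with more index-table counts than their parent, Rps12-ps3 stood at 2285 against 535 for Rps12, and Rps23-ps1 at 15897 against 3826 for Rps23. In the gene table Rps12-ps3 stood at 326 expected counts against 1564 for Rps12, so for this pair the table decided which gene was higher.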
